A study of Mus musculus with 24 samples.

Results

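Kidney macrophages were followed through 10 genes commonly used to recognise them, C1qa, C1qb, C1qc, Csf1r, Adgre1, Cd68, Cd74, Cx3cr1, Lyz2 and Mrc1. They were taken by symbol, and all 10 were found among the 55335 genes of the count files. Macrophages are resident immune cells that lie between the tubules and capillaries of the kidney, where they take up debris, sample filtered proteins and present antigen. They depend on signalling through the receptor that Csf1r encodes, and their numbers and state are known to change in injured and inflamed kidneys. In RNA of a whole kidney their transcripts are a small part of the total. A lower number of macrophages, less RNA per macrophage and fewer other cells that express the same genes cannot be told apart there.

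Whole kidneys of 24 mice on a C57BL/6J background were sequenced, 6 in each of 4 groups. The cKOm (male) and cKOf (female) mice carried Pex5lox/lox, Pax8-rtTA and LC1, and received doxycycline for 2 weeks from the age of 8 weeks, which deletes Pex5, the gene of the import receptor for most peroxisomal enzymes, from the renal tubule. The Ctrlm and Ctrlf mice were Pex5lox/lox littermates given the same doxycycline, so that floxed alleles and drug were shared by all 4 groups while both transgenes were carried by the cKO mice. Kidneys were examined 4 weeks after the treatment had ended. Because rtTA is driven by Pax8, which in the kidney acts in tubule epithelium, the deletion was aimed at cells other than macrophages, and the comparison asks how macrophage transcripts stood in kidneys whose tubules were targeted for loss of Pex5.

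The reads counted on genes ranged from 19376152 to 28470831 per kidney, and levels are given as CPM, a gene's counts relative to those of the whole library after TMM scaling. The floor for a detected gene, 3 counts, was at most 0.155 CPM by library size alone, a limit that covers counting error only. Pex5 itself was 54.3 ± 4.63 CPM in Ctrlm and 43.7 ± 1.94 CPM in cKOm mice (mean ± SD, n = 6 each), and 50.3 ± 6.97 CPM in Ctrlf against 43.6 ± 3.55 CPM in cKOf mice, with an edgeR adjusted p of 0.0219 in males and 0.177 in females. The male groups did not overlap, the female groups did, with 2 of 6 cKOf kidneys below the lowest Ctrlf kidney. The reads came from all cells of the kidney, including those that the transgenes do not reach, so these counts do not show how complete the deletion was in either sex. 1 kidney, Ctrlf replicate 1, stood apart from all others in immune transcripts, and results that rest on the Ctrlf group are given with and without it. 4 Ctrlm kidneys and 1 cKOm kidney also carried transcripts of hepatocytes, as described beside the male comparison.

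The 3 C1q genes lie side by side on chromosome 4 of GRCm38, on the minus strand, with C1qb from 136880129 to 136886187, C1qc from 136889804 to 136893065 and C1qa from 136895917 to 136898803. Lyz2 lies on chromosome 10 from 117277331 to 117282321, next to Lyz1 from 117287797 to 117292868, a neighbouring lysozyme gene that is known from Paneth cells of the gut. Promoters of 6 of the 10 genes (C1qb, C1qc, Cd68, Cx3cr1, Lyz2 and Mrc1) were found in RefSeq for GRCm38.p6. The 250 bases before the RefSeq start of transcription were searched on both strands for AGGAAGT, a core sequence bound by the ETS family, to which the macrophage factor PU.1 (gene Spi1) belongs. For C1qb, C1qc and Lyz2 that start differs from the gene limits given above, and the C1qc and Lyz2 windows lie partly inside those limits. The motif was chosen after these sequences had been seen. It was present in 4 of the 6, and in 7.69% of 32851 promoters of all genes over the same window. Of these, 3 are shown, because C1qb and C1qc are neighbours that varied together and Lyz2 differed most in level from a close relative, whose promoter follows. Capitals mark the motif, which reads ACTTCCT in all 4 sequences.
C1qb, chr4:136886201-136886450, minus strand: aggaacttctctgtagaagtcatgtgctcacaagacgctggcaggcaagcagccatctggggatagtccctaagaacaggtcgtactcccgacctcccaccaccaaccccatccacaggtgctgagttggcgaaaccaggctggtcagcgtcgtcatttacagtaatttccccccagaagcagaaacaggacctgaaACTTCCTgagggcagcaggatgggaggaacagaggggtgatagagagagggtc
C1qc, chr4:136892915-136893164, minus strand: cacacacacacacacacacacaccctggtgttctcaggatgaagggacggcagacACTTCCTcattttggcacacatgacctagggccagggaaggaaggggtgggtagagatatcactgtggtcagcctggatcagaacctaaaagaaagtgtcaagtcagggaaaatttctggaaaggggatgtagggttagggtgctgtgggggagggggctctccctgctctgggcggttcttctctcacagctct
Lyz2, chr10:117282273-117282522, minus strand: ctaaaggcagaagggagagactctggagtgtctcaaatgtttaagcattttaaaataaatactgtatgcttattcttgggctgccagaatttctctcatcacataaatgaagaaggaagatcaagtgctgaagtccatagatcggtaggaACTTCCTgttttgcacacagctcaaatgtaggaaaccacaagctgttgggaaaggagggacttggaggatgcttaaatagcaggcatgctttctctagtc
Lyz1, chr10:117292869-117293118, minus strand: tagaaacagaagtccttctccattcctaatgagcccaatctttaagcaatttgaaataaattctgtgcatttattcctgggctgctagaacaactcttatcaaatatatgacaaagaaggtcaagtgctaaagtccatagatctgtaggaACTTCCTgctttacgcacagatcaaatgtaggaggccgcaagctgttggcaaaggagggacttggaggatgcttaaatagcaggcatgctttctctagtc

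The motif lay 53 to 47 bases before the start in C1qb and 195 to 189 bases before it in C1qc. In Lyz2 and Lyz1 it lay at the same place, 100 to 94 bases before the start. Aligned without gaps, the Lyz2 and Lyz1 windows shared 152 of 250 bases (60.8%), and 92 of the last 100. A match describes the letters and does not show binding. The kidneys held Lyz2 at 10.4 to 59.1 CPM, whereas Lyz1 had 0 to 16 counts per kidney and at most 0.693 CPM, and it did not pass the filter of 1 CPM in at least 1 kidney. Reads that match both near copies equally would have been lost, since the counting took reads with a single place in the genome. How many were lost was not tested.

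Compared per kilobase of exon, the 10 genes spanned a wide range of levels. The median level over 24 kidneys was 67.6 CPM per kb for Cd74, the invariant chain that escorts MHC class II molecules, which was above every other marker in all 24 kidneys. C1qa and C1qb, encoding the A and B chains of the recognition molecule of the classical complement pathway, followed at 20.7 and 15.6 CPM per kb, with C1qa above C1qb in 22 of 24 kidneys. Lyz2, the lysozyme of myeloid cells, was at 11.6 CPM per kb and below C1qb in 18 kidneys, so these neighbours were not fully separated. Csf1r, the receptor for CSF1 and IL34, was at 7.97 CPM per kb.

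A lower tier held the remaining 5 genes. C1qc, the third C1q chain, had a median of 2.89 CPM per kb and the lysosomal glycoprotein gene Cd68 one of 2.66, and their order held in 17 of 24 kidneys. Cx3cr1, the fractalkine receptor, was at 1.20 CPM per kb, and Adgre1, which encodes the F4/80 antigen, at 1.09, again with this order in 17 of 24. Mrc1, the mannose receptor CD206, was lowest at 0.874 CPM per kb and was below Adgre1 in 19 kidneys. The exons of Csf1r overlap those of Hmgxb3 on the opposite strand over 873 bases (15.1% of the Csf1r exons). The strand setting of the counting is not given in the sources used here. Reads in the shared bases may have been set aside as ambiguous or given to either gene, and the effect on the Csf1r level was not tested.

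**Figure D1:**
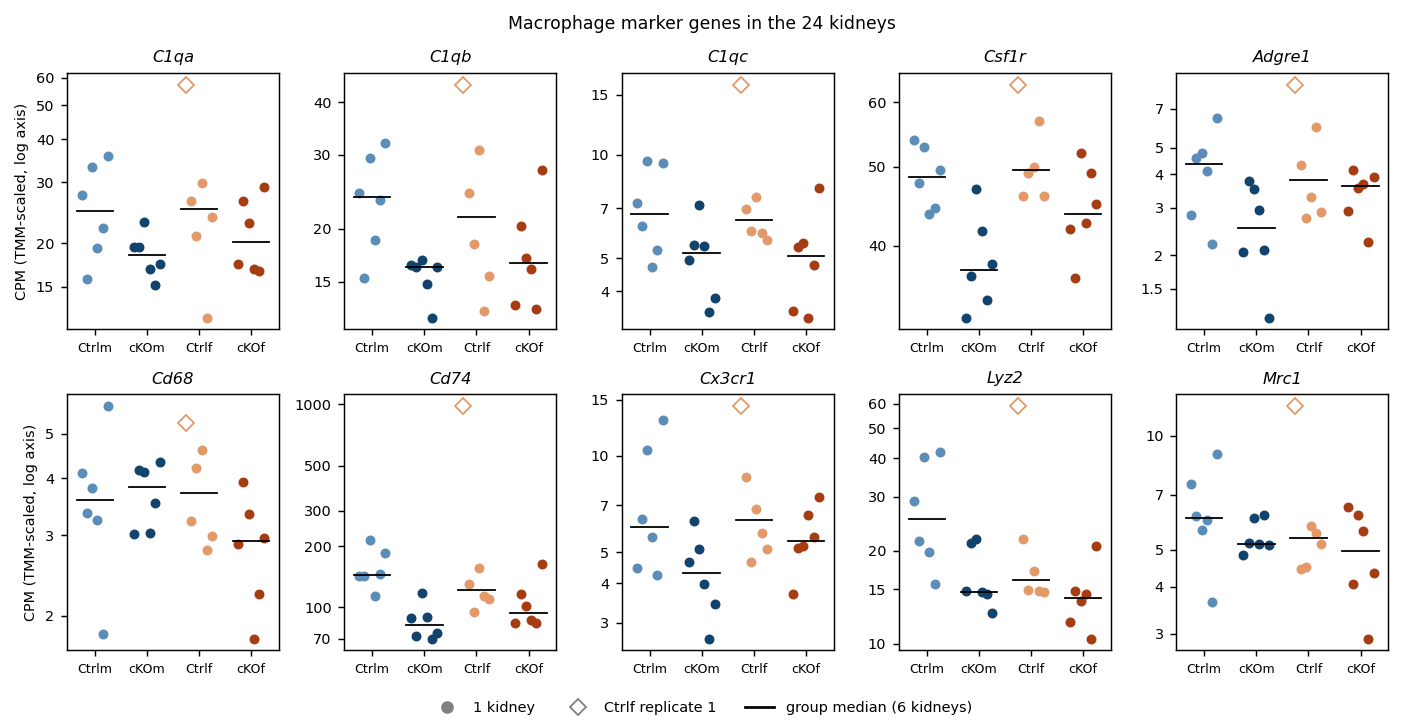
Levels of the 10 macrophage marker genes in CPM on a log axis, 1 panel per gene and 1 point per kidney, with a line at the median of the 6 kidneys of each group. Ctrlf replicate 1 (open diamond) is highest of all 24 kidneys for every gene but Cd68, and between 1 and 5 of the 6 cKOm points lie below the lowest Ctrlm point for every gene but Cd68 and Mrc1.

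Ctrlf replicate 1 had the highest level of all 24 kidneys for 9 of the 10 genes and the next to highest for Cd68. Its Cd74 level was 983 CPM, whereas the other 5 Ctrlf kidneys lay between 95.3 and 156 CPM, a ratio of 8.66 to their median. For Lyz2 the ratio was 3.97, for C1qc 2.67, for Adgre1 2.62, for Cx3cr1 2.49, for C1qa 2.41, for C1qb 2.39 and for Mrc1 2.31. Cd68 (1.64) and Csf1r (1.28) differed least in this kidney. The same kidney was highest in other immune lists. The summed level of 13 MHC class II genes was 1322 CPM, against at most 280 CPM in the other Ctrlf kidneys, that of 17 interferon-stimulated genes was 1032 against at most 279 CPM, and that of 12 T and NK cell markers was 32.9 against at most 12.8 CPM. Their part in the marker levels was not tested. Hepatocyte transcripts (87.8 CPM) were within the range of the other Ctrlf kidneys (76.3 to 116 CPM).

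In males, 9 of the 10 genes had a log2 fold change below 0 in cKOm against Ctrlm mice, with a median of -0.56, whereas the median of all 16092 genes tested was 0.01 and 47.7% of them lay below 0. In edgeR's quasi-likelihood test 1 gene, Csf1r, passed the threshold (adjusted p under 0.05), where 9.05% of all genes passed it in either direction and 4.9% were lower. At an unadjusted p under 0.05, 6 of the 10 were lower (C1qb, Csf1r, Adgre1, Cd74, Cx3cr1 and Lyz2), where 12% of all genes were. None of the 10 separated the groups without overlap, which 7.38% of all genes did.

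Csf1r was between 43.8 and 53.9 CPM in Ctrlm mice, with a median of 48.6 CPM. In cKOm mice it was between 32.6 and 47.0 CPM, with a median of 37.3 CPM. Cd74 ran from 113 to 214 CPM (median 144 CPM) in Ctrlm and from 70.1 to 118 CPM (median 81.5 CPM) in cKOm mice. For Csf1r 5 of 6 cKOm kidneys lay below the lowest Ctrlm kidney, and cKOm replicate 3 was the exception, as it was for Cd74. Csf1r fell by 0.34 on the log2 scale (standard error, SE, 0.10, adjusted p = 0.0399). Cd74 had a log2 fold change of -0.88 (SE 0.41, adjusted p = 0.280), and the exact permutation test over all arrangements of 6 against 6 kidneys gave p = 0.00866 for Csf1r and 0.00433 for Cd74 (two-sided, not adjusted).

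The standard error of Cd74 was set largely by 1 female kidney, since the fit shares its spread over the 4 groups. Without Ctrlf replicate 1, or with only the male groups in the fit, the log2 fold change of Cd74 in males was -0.88 (SE 0.17, adjusted p = 0.00136) and -0.90 (SE 0.15, adjusted p = 0.00134), respectively. Lyz2 also passed without Ctrlf replicate 1 (adjusted p = 0.0290), and C1qb passed with the male groups alone (adjusted p = 0.0183), where Lyz2 had an adjusted p of 0.0529. The call of Csf1r held in both fits, with adjusted p of 0.0286 and 0.0274. It was also the 1 call made by DESeq2 (adjusted p = 0.0128) and by limma-voom (adjusted p = 0.0358), where DESeq2 gave Cd74 no p in any comparison. It was lost when Ctrlm replicate 1, 2 or 3 or cKOm replicate 1, 2, 5 or 6 was left out, with adjusted p up to 0.107 and log2 fold changes from -0.35 to -0.30.

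The C1q chains showed the same order of medians. C1qa was 15.8 to 35.7 CPM (median 24.9) in Ctrlm and 15.1 to 23.1 CPM (median 18.5) in cKOm mice. C1qb was 15.3 to 31.9 CPM (median 23.9) against 12.3 to 16.8 CPM (median 16.3), and C1qc 4.72 to 9.58 CPM (median 6.72) against 3.48 to 7.14 CPM (median 5.18). All 6 cKOm kidneys were below the Ctrlm median for C1qa and C1qb and 5 of 6 for C1qc, although the groups overlapped for each chain. The log2 fold changes were -0.46 ± 0.25 (SE) for C1qa, -0.62 ± 0.23 for C1qb and -0.49 ± 0.26 for C1qc, with adjusted p of 0.383, 0.146 and 0.361.

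Lyz2 ranged from 15.6 to 41.9 CPM in Ctrlm (median 25.3) and from 12.5 to 21.9 CPM in cKOm mice (median 14.7). Cx3cr1 ranged from 4.23 to 12.9 CPM (median 5.98) and from 2.68 to 6.27 CPM (median 4.31), and Adgre1 from 2.19 to 6.47 CPM (median 4.34) and from 1.17 to 3.78 CPM (median 2.52). The Ctrlm kidneys were widely spread for these 3 genes, with replicates 3 and 6 at the top each time, and all Adgre1 values in cKOm mice were below the Ctrlm median. The log2 fold changes were -0.76 ± 0.30 for Lyz2, -0.75 ± 0.28 for Cx3cr1 and -0.69 ± 0.30 for Adgre1, with adjusted p of 0.170, 0.149 and 0.231.

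Cd68 and Mrc1 differed least between the male groups. Cd68 was 1.83 to 5.75 CPM in Ctrlm (median 3.58) and 3.02 to 4.34 CPM in cKOm mice (median 3.82). Mrc1 was 3.65 to 8.99 CPM (median 6.07) and 4.85 to 6.20 CPM (median 5.20). For both genes the cKOm range lay inside the Ctrlm range. The log2 fold change of Cd68 was 0.01 (95% interval -0.43 to 0.45) and that of Mrc1 -0.21 (-0.66 to 0.23), which leaves room for differences in either direction, and the sign for Cd68 was negative under 6 of 9 other settings.

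Hepatocyte transcripts moved with the male groups. The summed level of 8 hepatocyte markers was 90.4 to 932 CPM in Ctrlm (median 644), 75.1 to 493 CPM in cKOm (median 106) and 57.4 to 128 CPM in all female kidneys, with Ctrlm replicates 1 to 4 and cKOm replicate 4 above 400 CPM. Alb, the gene of serum albumin, and Apoa2, an apolipoprotein gene, were lower in cKOm mice (log2 fold change -2.38 and -1.91, adjusted p of 0.0353 and 0.0125). The call of Alb was not made with limma-voom, the replicate block or only the 2 groups compared, and was made in 16 of 24 fits with 1 kidney left out. Among markers of liver macrophages, chosen after their values were seen, Clec4f had 10, 12, 16 and 2 counts in Ctrlm replicates 1 to 4. It had 3 counts in cKOm replicate 4 and 0 in the other 19 kidneys, and Vsig4 had at most 9 counts in any kidney. Timd4 did not follow the hepatocyte level, with at most 4 counts in Ctrlm, 0 in cKOm and 3 in cKOf mice. Its highest value, 11 counts, was that of Ctrlf replicate 1. The Ctrlm kidney with the lowest hepatocyte level, replicate 6, was the highest of its group for 7 of the 10 markers. Ctrlm replicate 3, with the highest hepatocyte level (932 CPM), was among the first 2 of its 6 kidneys for 8 markers. Ctrlm replicate 5, at 149 CPM, was lowest for 5. How the markers relate to the hepatocyte level within this group was not tested. With the hepatocyte level as a covariate, the median log2 fold change of the 10 genes in males was -0.63 and all 10 were below 0, but none passed the threshold. Csf1r then had a log2 fold change of -0.28 (SE 0.12, adjusted p = 0.289) so that its call was lost. The covariate itself differed between the male groups, so that it cannot be told apart fully from genotype there. Calls of tubule genes such as Slc34a1 and Slc12a1 were lost with it too, whereas Lrp2 and Psap were still called. The share of all genes called in this fit is not reported here.

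In females, all 10 genes had a log2 fold change below 0 in cKOf against Ctrlf mice, with a median of -0.43, whereas 49.5% of the 16092 genes tested lay below 0. None passed the threshold of edgeR's adjusted p, which 0.851% of all genes passed, and none passed it with limma-voom or, of the 9 markers other than Cd74, with DESeq2. At an unadjusted p under 0.05, 4 of the 10 were lower (C1qc, Csf1r, Cd74 and Lyz2), where 4.14% of all genes were. No marker separated Ctrlf from cKOf mice without overlap, which 0.559% of all genes did. These differences rested largely on Ctrlf replicate 1. Without that kidney the 10 log2 fold changes ran from -0.33 to -0.05 with a median of -0.19, none had an unadjusted p under 0.05, and the lowest adjusted p was 0.494.

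Cd74 was 95.3 to 983 CPM in Ctrlf (median 122) and 83.4 to 164 CPM in cKOf mice (median 94.2). Csf1r was 46.0 to 63.02 CPM (median 49.5) and 36.4 to 52.0 CPM (median 43.8), and Lyz2 14.7 to 59.1 CPM (median 16.1) and 10.4 to 20.8 CPM (median 14.1). The groups overlapped for each of these genes, the highest Ctrlf value was always that of replicate 1, and cKOf replicate 6 was the highest of its group for Cd74 and Lyz2. For Cd74 the log2 fold change was -1.32 (SE 0.41, adjusted p = 0.0625) with all kidneys and -0.19 (SE 0.18, adjusted p = 0.687) without Ctrlf replicate 1. Cd74 was called in females when any one of Ctrlf replicates 2 to 6 or cKOf replicate 6 was left out (adjusted p from 0.0283 to 0.0456) or no filter was used (adjusted p = 0.0352), all with Ctrlf replicate 1 in the fit. For Lyz2 the log2 fold change was -0.73 and -0.22 with and without Ctrlf replicate 1, and for Csf1r -0.22 and -0.16.

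The C1q chains had medians of 25.2 (C1qa), 21.4 (C1qb) and 6.47 CPM (C1qc) in Ctrlf and of 20.1, 16.6 and 5.08 CPM in cKOf mice. For C1qc, 5 of 6 cKOf kidneys lay below the lowest Ctrlf kidney, 5.63 CPM, and replicate 6 at 7.98 CPM was the exception. C1qc was the chain with the lowest adjusted p (log2 fold change -0.65, SE 0.25, adjusted p = 0.171), and without Ctrlf replicate 1 its log2 fold change was -0.33. Adgre1 (medians 3.80 and 3.61 CPM), Cx3cr1 (6.28 and 5.40 CPM), Cd68 (3.72 and 2.92 CPM) and Mrc1 (5.37 and 4.97 CPM) overlapped widely between Ctrlf and cKOf mice. Their log2 fold changes lay between -0.45 and -0.34 and had adjusted p from 0.369 to 0.518.

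**Figure D2:**
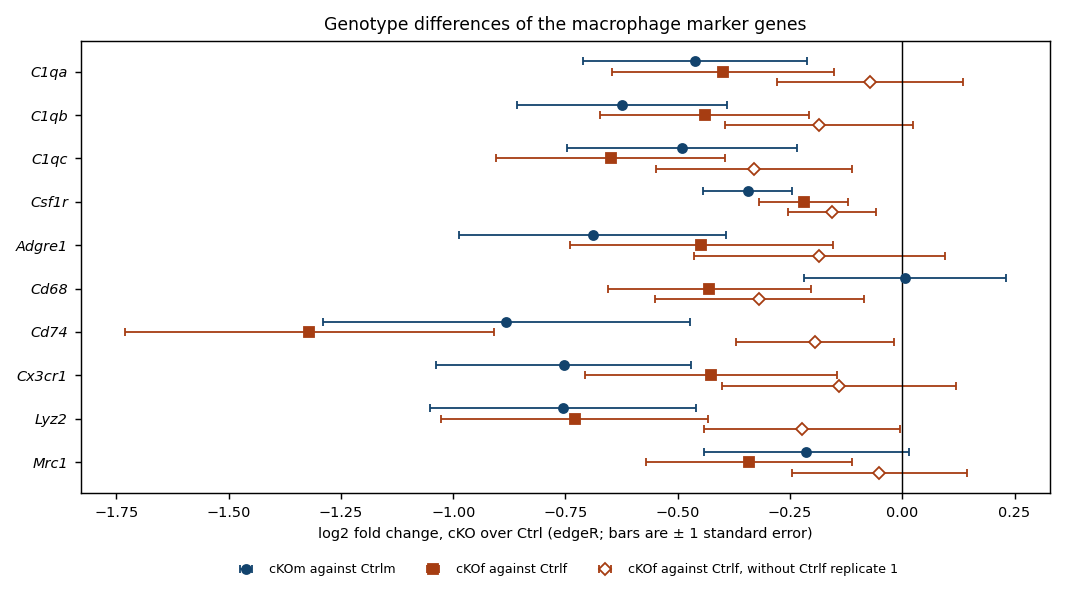
Log2 fold change of each marker gene in cKO over Ctrl mice with 1 SE on each side, for males (circles), females (squares) and females without Ctrlf replicate 1 (open diamonds). The male values lie between -0.88 and 0.01, and the female values, from -1.32 to -0.22 with all kidneys, move to between -0.33 and -0.05 without that kidney.

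The male and female differences were compared directly by the interaction of genotype and sex, which 2.31% of all genes passed. None of the 10 markers did, and none had an unadjusted p under 0.05, as 13.4% of all genes did (adjusted p from 0.597 to 0.987), nor did any pass with limma-voom or, leaving out Cd74, with DESeq2. The widest differences were those of Cd74 (0.44 on the log2 scale, 95% interval -0.69 to 1.56), of Cd68 (0.44, -0.19 to 1.06) and of Cx3cr1 (-0.33, -1.11 to 0.45), and all 10 intervals included 0. Without Ctrlf replicate 1 the interaction was below 0 for 9 of 10 markers with a median of -0.41, which again gave no call, and 1 of them, Cd74 at -0.69, had an unadjusted p under 0.05 (adjusted p = 0.178).

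Between the sexes, none of the 10 genes passed the threshold in control mice (Ctrlm against Ctrlf, where 15.7% of all genes passed) or in cKO mice (cKOm against cKOf, where 9.72% passed). The same held with limma-voom and, for the 9 markers other than Cd74, with DESeq2. At an unadjusted p under 0.05, 0 markers passed in control mice (28.1% of all genes) and 1 in cKO mice (21.7%), Csf1r, which was 38.4 ± 5.25 CPM in cKOm and 44.5 ± 5.54 CPM in cKOf mice (log2 fold change -0.21, SE 0.10, adjusted p = 0.174). Without Ctrlf replicate 1, 9 of 10 markers had a higher fitted level in Ctrlm than in Ctrlf mice with a median log2 fold change of 0.20, and Lyz2 passed the threshold (0.75, SE 0.22, adjusted p = 0.0233). Its level was 15.6 to 41.9 CPM in Ctrlm mice and 14.7 to 21.9 CPM in the other 5 Ctrlf mice, so that these kidneys still overlapped.

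Kidneys differed within groups as well, and the markers moved together there. After the group mean had been taken from each log2 CPM value, all 45 pairs of markers had a positive Pearson r over the 24 kidneys, with a median of 0.58 and a range from 0.21 to 0.93. By permutation within groups (100000 draws, adjusted over 45 pairs), 30 pairs had an adjusted p under 0.05, and 18 did without Ctrlf replicate 1. By Spearman's rho, whose median was 0.53, 25 pairs did. The values of a kidney share a library and its scaling factor, and with CPM scaled by library size alone 28 pairs passed.

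C1qa and C1qb were the closest pair, with r = 0.93 and rho = 0.91 (permutation adjusted p = 0.000113 for r and 0.00015 for rho), r = 0.89 without the 2 kidneys farthest from the median of C1qa, and r = 0.90 without Ctrlf replicate 1. C1qc followed Lyz2 (r = 0.86, rho = 0.75, permutation adjusted p = 0.000113 for r), with r = 0.77 without the 2 farthest kidneys and 0.78 without Ctrlf replicate 1. Lyz2 passed with all 9 partners, and with 7 without Ctrlf replicate 1. Csf1r and Mrc1 passed with 3 partners each and with 0 by Pearson's r once that kidney was left out. By Spearman's rho Csf1r then still passed with C1qc (rho = 0.53, permutation adjusted p = 0.0451, r = 0.46). In the groups other than Ctrlf, Ctrlm replicate 6 was highest for 7 of 10 markers, cKOm replicate 3 and cKOf replicate 6 for 6 each, whereas Ctrlm replicate 5 and cKOm replicate 5 were lowest for 5 each and cKOf replicate 5 for 6.

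**Figure D3:**
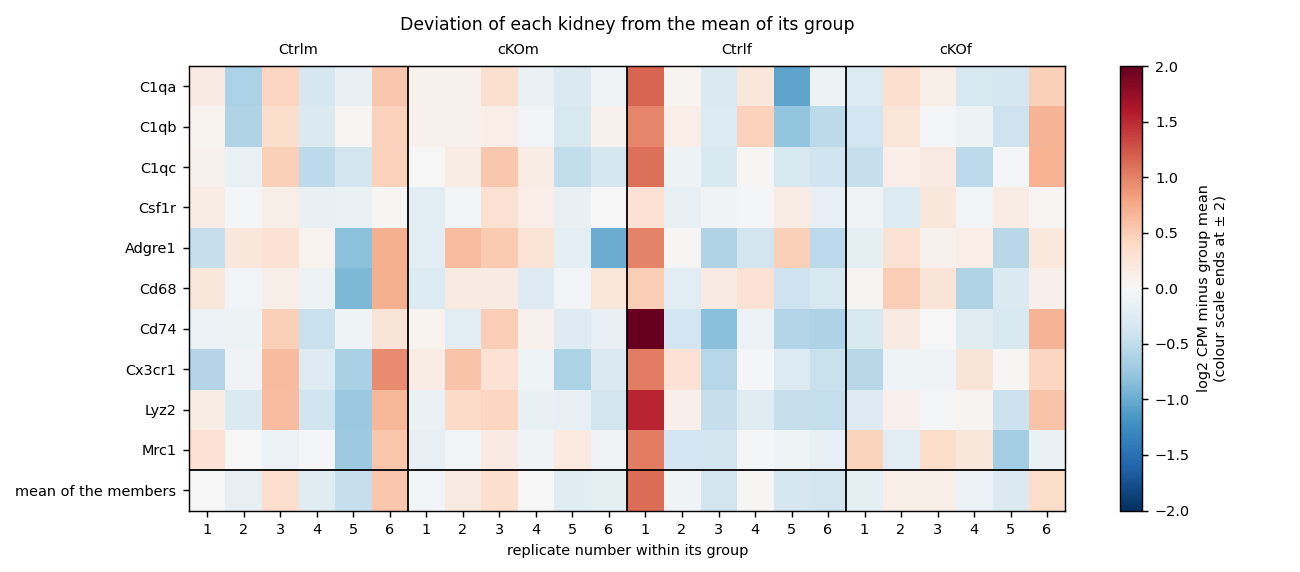
Deviation of each kidney (columns, by group and replicate number) from its group mean in log2 CPM for the 10 markers (rows) and their mean (bottom row), red above and blue below the mean, with colours ending at 2 on either side. Ctrlf replicate 1 is red in every row, Ctrlm replicate 6 is red or near 0 in every row, and Csf1r varies least.

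The 3 C1q chains assemble into 1 protein, and their counts were compared as ratios. C1qa had 0.944 to 1.54 counts for each count of C1qb over the 24 kidneys (median 1.14), and C1qc 0.208 to 0.463 (median 0.299), although their summed level ran from 30.9 to 117 CPM. The group medians of the ratio of C1qa to C1qb were 1.08 (Ctrlm), 1.19 (cKOm), 1.12 (Ctrlf) and 1.29 (cKOf), and the ranges overlapped between all groups. The ratio of Cd74 to Csf1r ran from 1.70 to 15.6 in counts, with 15.6 in Ctrlf replicate 1 and at most 4.05 in the other 23 kidneys.

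**Figure D4:**
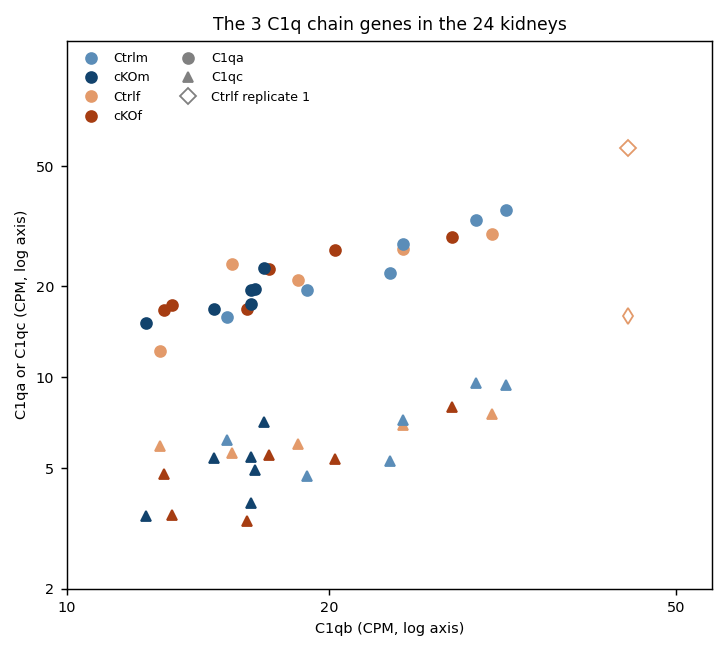
Level of C1qa (circles) and C1qc (triangles) against C1qb in the 24 kidneys, in CPM on log axes, coloured by group, with Ctrlf replicate 1 open. Both chains rise with C1qb from its lowest value of 12.3 to its highest of 44.0 CPM, and C1qc stays below C1qa in every kidney.

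Genes whose deviations over the 24 kidneys were most like the mean of the 10 markers were sought among 14062 others with a mean of at least 1 CPM. The first was Laptm5, a lysosomal membrane protein of blood cells (Pearson r = 0.94), which was also first without Ctrlf replicate 1 (r = 0.90). Itgb2, the beta chain of leukocyte integrins, followed with r = 0.92, then Cyth4 with r = 0.92, Pirb, an inhibitory receptor of myeloid cells, with r = 0.91, and Ctss, the cathepsin that trims the invariant chain, with r = 0.90. The other 15 of the first 20 were Lair1, Pld4, Plek, Arhgap30, H2-DMa, Clec12a, H2-Ab1, Lgals3bp, Themis2, Mpeg1, Unc93b1, Dennd1c, Fgl2, Fcgr4 and Psmb8, with r from 0.84 to 0.90. Of the first 20, 5 stand on the list of other macrophage genes described next. When Ctrlf replicate 1 was left out, 10 of them were again among the first 20, of which 3 stand on that list, with r from 0.76 to 0.90. The 10 that entered were Mvk, an enzyme of sterol synthesis, at the third place, Slc11a1, Sema3b, Lpcat3, Dhcr7, Tpst2, Pkm, Meis3, G6pdx and Mfsd4a.

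Of 32 other macrophage genes, 27 passed the filter and 2 were called in males, 1 lower and 1 higher, where 9.05% of all genes were called. Mpeg1, the pore-forming perforin-2 of macrophages, was lower (16.3 to 38.8 CPM in Ctrlm and 10.9 to 20.4 CPM in cKOm mice, log2 fold change -0.86, SE 0.25, adjusted p = 0.0441). Sirpa, the receptor for CD47, which tubule cells may also express, was higher (58.7 to 93.2 CPM and 83.1 to 100 CPM, log2 fold change 0.33, SE 0.09, adjusted p = 0.0245). The median log2 fold change of the 27 genes was -0.44 in males, where 21 lay below 0. It was -0.37 in females, where none was called and 25 lay below 0, and -0.10 in females without Ctrlf replicate 1. Without Ctrlf replicate 1, 8 genes were called lower in males in place of 1. The share of all genes called in that fit is not reported here, for this or the later lists. Both calls made with all kidneys were lost with the hepatocyte level as a covariate (Mpeg1 -0.93, SE 0.31, adjusted p = 0.122, Sirpa 0.24, SE 0.11, adjusted p = 0.319), and Mpeg1 was called in 11 of 24 fits with 1 kidney left out. The summed level of this list is not a measure of macrophages, because Lgmn (mean 703 CPM) and Maf (mean 360 CPM), both also expressed by tubule cells, made up most of it.

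Cd74 works with MHC class II, and all 13 genes of that group were tested. None was called in either sex. The median log2 fold change was -0.62 in males and -0.89 in females, and -0.07 in females without Ctrlf replicate 1. H2-Ab1, a class II beta chain, was 74.1 to 155 CPM in Ctrlm and 50.8 to 85.2 CPM in cKOm mice (log2 fold change -0.81, SE 0.44, adjusted p = 0.385), and its partner H2-Aa had -0.86 (SE 0.32, adjusted p = 0.146). At an unadjusted p under 0.05 in either direction, 2 of the 13 passed in males and 8 in females. At that limit 12% of all genes were lower in males and 4.14% in females, and the share in either direction is not reported here. Without Ctrlf replicate 1 none of the 13 passed that limit in females, and 3 were called and lower in males. Ciita, the regulator of class II transcription, had values of -0.75 in males and -1.45 in females (adjusted p of 0.505 and 0.0920).

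Among ligands, Il34 was lower in cKOm mice. Il34, which tubule cells can make and which binds the receptor encoded by Csf1r, was 4.95 to 12.99 CPM in Ctrlm (median 9.01) and 3.91 to 6.41 CPM in cKOm mice (median 5.12). The female values were lower, 3.16 to 5.59 CPM in Ctrlf and 2.97 to 4.75 CPM in cKOf mice. The male groups overlapped, with Ctrlm replicate 6 at 4.95 CPM below 4 of the 6 cKOm kidneys. The log2 fold change was -0.84 (SE 0.19, adjusted p = 0.00683) in males and -0.08 (SE 0.20, adjusted p = 0.904) in females, and the interaction had an adjusted p of 0.18. The call held when any 1 kidney was left out, and was lost with the hepatocyte level as a covariate (log2 fold change -0.73, adjusted p = 0.119).

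The other ligand of the same receptor, Csf1, was 11.01 to 17.8 CPM in Ctrlm and 12.6 to 17.47 CPM in cKOm mice (log2 fold change -0.19, SE 0.15, adjusted p = 0.597). Cx3cl1, the ligand of the receptor encoded by Cx3cr1, had values of -0.04 in males and 0.07 in females, and Mif, a ligand of CD74, values of -0.12 and 0.03. Ccl2, which recruits monocytes, averaged 0.969 CPM in Ctrlm and 0.360 CPM in cKOm mice (log2 fold change -1.42, SE 0.46, adjusted p = 0.0719). Of the 11 ligands and chemokines, 8 were tested, and Il34 was the only one called with all kidneys, while 2 were lower in males without Ctrlf replicate 1. With all kidneys 9.05% of all genes were called in males.

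**Figure D5:**
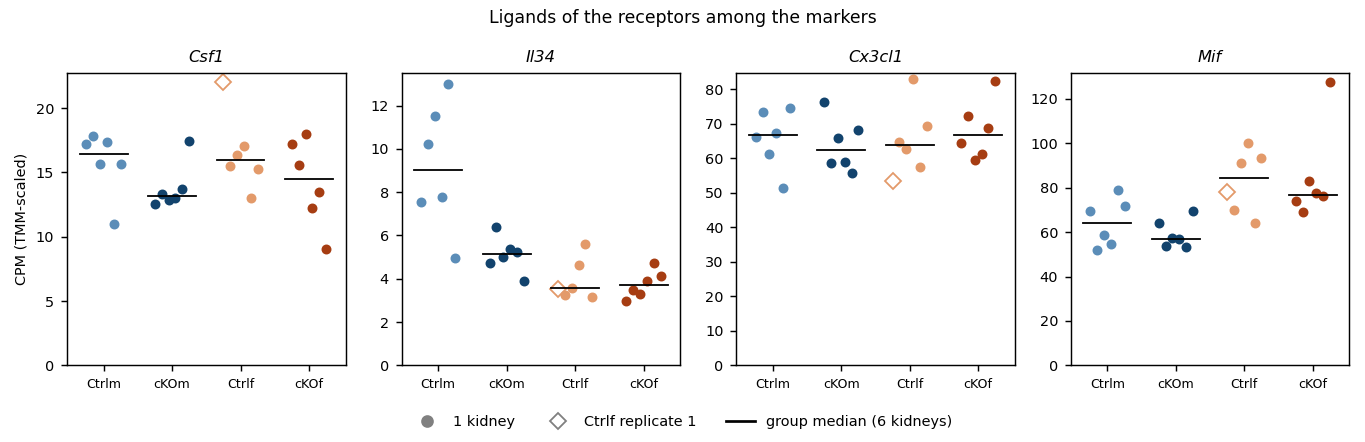
Levels in CPM, on axes that start at 0, of the ligands of receptors among the markers, 1 point per kidney with a line at the group median and Ctrlf replicate 1 open. The Il34 median is 9.01 CPM in Ctrlm and 5.12 CPM in cKOm mice, while Csf1, Cx3cl1 and Mif overlap across the 4 groups.

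The complement genes that act with C1q were called in 2 of 13 cases in males and 1 in females, where 9.05% and 0.851% of all genes were called. C4b, whose product C1 cleaves, was 5.37 to 16.4 CPM in Ctrlm and 0.526 to 6.16 CPM in cKOm mice (log2 fold change -1.97, SE 0.51, adjusted p = 0.0192), and had -2.13 (SE 0.52, adjusted p = 0.0124) in females, or -1.07 without Ctrlf replicate 1. Reads of C4b may be shared with C4a, a near copy, so this value is uncertain. Cr1l, a complement regulator, was higher in cKOm mice (0.25, adjusted p = 0.0300). With the hepatocyte covariate the male log2 fold changes were -1.54 for C4b (adjusted p = 0.146) and 0.22 for Cr1l (adjusted p = 0.231) and neither was called. Cr1l was not called with RLE normalization or no filter either, and the female call of C4b was lost without Ctrlf replicate 1 (adjusted p = 0.103). The proteases C1ra and C1s1 that pair with C1q had -0.25 and -0.23 in males (adjusted p of 0.532 and 0.224).

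Lysosomal genes, which tubule cells express as well, were among those called in males. Psap, the saposin precursor, was 828 to 1095 CPM in Ctrlm and 618 to 742 CPM in cKOm mice without overlap (log2 fold change -0.54, SE 0.08, adjusted p = 8.1e-05), Lamp2 (-0.26) was lower and Hexa (0.40) was higher. With the hepatocyte covariate Psap alone of these 3 was called (adjusted p = 0.00240), while Lamp2 had a log2 fold change of -0.27 and Hexa of 0.30 without a call. The interaction of Psap was called (adjusted p = 0.0323), but not with the covariate (adjusted p = 0.108), the replicate block or no filter, and in 14 of 24 fits with 1 kidney left out. Of 15 activation genes, 9 were tested and 1 was called in males, where 9.05% of all genes were. It was Spp1, the osteopontin gene that tubules also express, which was higher in cKOm mice (0.69, adjusted p = 0.00178). With the hepatocyte covariate Spp1 had 0.46 (SE 0.14, adjusted p = 0.0730) and was not called. Nos2 had values of -0.12 in males and -0.21 in females, Il10 had no count in any kidney, and Il6, Tnf, Retnla and Chil3 did not pass the filter.

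Tubule markers gave 4 calls in males, described below, and hepatocyte markers gave 2. The other cell types gave few calls, but several immune lists had lower summed levels in cKOm mice. The summed monocyte and neutrophil markers had medians of 19.7 CPM in Ctrlm and 13.6 CPM in cKOm mice, without overlap. Interferon-stimulated genes had 277 and 220 CPM, again without overlap. T and NK cell markers had 8.80 and 5.74 CPM and overlapped. Podocyte markers had a higher median in cKOm mice (470 and 518 CPM). So did the sums of the other macrophage genes (1230 and 1385 CPM), the activation genes of macrophages and the mast cell markers. The difference in these sums was not tested. Of 6 tested monocyte and neutrophil markers none was called in either sex, with Ccr2, the receptor of CCL2, at 6.36 to 11.7 CPM in Ctrlm and 2.81 to 7.09 CPM in cKOm mice (log2 fold change -0.80, SE 0.27, adjusted p = 0.0909). Of 10 dendritic cell markers Clec9a and Ccr7, and of 9 tested T and NK cell markers Cd8a, were lower in cKOf mice (log2 fold changes of -1.81, -2.85 and -1.82, adjusted p of 0.0362, 0.0179 and 0.0295). In that comparison 0.851% of all genes were called. Without Ctrlf replicate 1 the values of Clec9a and Cd8a were -0.76 and -1.22 and neither passed, and Ccr7 did not pass the filter. None of 6 tested B and plasma cell markers, 17 interferon-stimulated genes, 7 endothelial, 6 fibroblast and mural or 5 podocyte markers was called by genotype with all kidneys.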

How the data were processed

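Whole-kidney RNA of 24 mice was sequenced from stranded mRNA libraries. The authors trimmed reads with cutadapt 1.8, aligned them to GRCm38 with STAR 2.5.3a and counted them per gene with HTSeq 0.9.1, and the deposited values are raw counts. Rows naming no gene (34.0% to 41.5% of a file's total) were left out. Depth was 19376152 to 28470831 counts per kidney.

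The 16092 genes that reached 1 CPM in any kidney were fitted in edgeR 4.0.16 (R 4.3.3) with TMM scaling, the quasi-likelihood test and 1 mean per group. P values were adjusted by Benjamini-Hochberg over the male and female genotype tests together, over the 2 sex tests together, and over the interaction alone, at a threshold of 0.05. Single values were compared by exact permutation tests in Python 3.11.15 with scipy 1.17.1. On simulated data with 200 of 15707 genes changed by 1 on the log2 scale, 168 (male) and 164 (female) were recovered, with 8 false calls each. Genes with few counts were not changed, and no kidney was made to stand apart. The markers had a smaller median log2 fold change in males (-0.56), so these numbers do not give their recovery. Alternatives were limma-voom (limma 3.58.1), DESeq2 1.42.0, RLE normalization, no filter, 1 CPM in at least 6 kidneys, a replicate block, only the groups compared, adjustment within a comparison, each kidney left out in turn, CPM without TMM and, chosen after seeing the data, the hepatocyte level as a covariate. The results without Ctrlf replicate 1 in the correlations and CPM without TMM were also chosen after seeing the data.

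The 10 markers and the 19 gene lists were chosen with earlier results of these data known. From each list, genes past the threshold in the male, female or interaction test were named, up to 5 by smallest p, or else up to 3 by highest mean CPM. The 20 genes most like the mean of the markers were named by Pearson r. Csf1, Cx3cl1, Mif, Ccl2, Ciita, C1ra, C1s1, Nos2, Lgmn, Maf and the H2 genes were named in addition, for their role or level, after their values were seen. Some genes that this rule names are not reported here. Nothing in the labels ties a replicate number to a shared litter or day. Each kidney is a separate mouse, and replicates of a group differed by more than counting noise in all 60 pairs (chi-square per degree of freedom 9.68 to 96.7).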

Additional observations from a re-analysis of the deposited data

Results flagged for a closer look

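Within groups of 6, a kidney was noted where its gap to the nearest other kidney exceeded Dixon's 95% critical share of the group's range. Of 68 groups of values tested, 14 met this, where chance gives about 1 in 20. Ctrlf replicate 1 accounted for 9 of them. It was highest for C1qc (16.01 CPM), Cd74 (983 CPM), Lyz2 (59.1 CPM) and Mrc1 (12.0 CPM). It was also highest in the summed levels of MHC class II genes (1322 CPM), monocyte and neutrophil markers (35.2 CPM), dendritic cell markers (37.2 CPM), T and NK cell markers (32.9 CPM) and interferon-stimulated genes (1032 CPM).

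The remaining values came from 4 kidneys. cKOf replicate 6 was highest of its group for MHC class II genes (322.6 CPM, next 229 CPM) and for monocyte and neutrophil markers (20.6 CPM, next 13.8 CPM). B and plasma cell markers were highest in cKOm replicate 2 (61.9 CPM, next 27.5 CPM). Interferon-stimulated genes were lowest in cKOm replicate 1 (180.2 CPM, next 211 CPM). Hepatocyte markers were highest in cKOm replicate 4 (493 CPM, next 129 CPM).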

How the results depend on the processing

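In males 1 marker was called, against 3 with only the groups compared, 0 with the hepatocyte covariate and 0 to 3 with 1 kidney left out (3 without Ctrlf replicate 1). In females the count was 0, against 1 without a filter on low counts and 0 to 1 with 1 kidney left out, and between control sexes it was 0 to 1. Pairs of markers past the threshold, 30 with all kidneys, ran from 18 to 31 with 1 kidney left out. Markers with an exact permutation p under 0.05 in females were 0, and 2 with CPM without TMM. The sign turned for Cd68 in males with DESeq2 (-0.013), RLE (-0.013), no filter (-0.018), 1 CPM in 6 kidneys (-0.014), 2 groups only (-0.014) and the hepatocyte covariate (-0.15). It turned for the Cd74 interaction with limma-voom (-0.15), and for C1qb between control sexes with limma-voom (0.068), the replicate block (0.0076) and the covariate (0.075), which also turned Cd68 (0.14) and Cx3cr1 (0.13) there. With 1 kidney left out, signs also turned within these ranges. Cd68 in males ran from -0.13 to 0.15. Interactions ran from -0.39 to 0.070 (C1qa), -0.16 to 0.33 (C1qc), -0.69 to 0.61 (Cd74), -0.53 to 0.11 (Lyz2) and -0.16 to 0.23 (Mrc1). Between control sexes they were -0.29 to 0.18 (C1qa), -0.14 to 0.23 (C1qb), -0.28 to 0.14 (C1qc), -0.31 to 0.11 (Adgre1), -0.21 to 0.076 (Cd68), -0.93 to 0.37 (Cd74), -0.26 to 0.25 (Cx3cr1) and -0.091 to 0.31 (Mrc1), and between cKO sexes -0.14 to 0.16 (C1qc). None of these passed the threshold, and the causes were not tested. Same-numbered kidneys did not pair (correlations of deviations from -0.199 to 0.118 over 12 pairs, 1 above 0.1), and with the replicate block 1 marker was called in males and 0 in females. Other macrophage genes called in males numbered 2, against 7 with DESeq2 and 0 with the covariate. Adgre1 rested on 30 to 187 counts per kidney, and how far depth limits such markers was not tested.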

Other observations

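Markers of the other kidney cells gave calls in males among tubule genes, and none among endothelial, fibroblast and mural or podocyte genes. In males 9.05% of all genes were called. Of 9 tubule markers, Slc34a1, the phosphate transporter of the proximal tubule, and Lrp2, the endocytic receptor megalin, were lower in cKOm mice (log2 fold change -0.33 each, edgeR adjusted p of 0.00778 and 0.0192). Slc12a1, the cotransporter of the thick ascending limb, and Atp6v1b1, a proton pump subunit of intercalated cells, were higher (0.33 and 0.30, adjusted p of 0.0116 and 0.0136). With the hepatocyte covariate the values of Slc34a1 (-0.28), Slc12a1 (0.30) and Atp6v1b1 (0.31) were no longer called (adjusted p of 0.141, 0.130 and 0.0672), and without a filter on low counts Lrp2, Slc12a1 and Atp6v1b1 were not. None of the 9 was called in females.

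Among lists with no call, the endothelial receptors Flt1 and Kdr had values of -0.13 and -0.09 in males, and Emcn -0.21. The fibroblast and mural genes Pdgfra, Pdgfrb and Dcn had values of -0.26, -0.22 and -0.26, and the podocyte genes Podxl and Synpo 0.14 and 0.02. The immunoglobulin genes Igkc and Ighm had values of -0.40 and -0.33 in males and -0.45 and -0.64 in females, and Jchain -0.73 and -0.15. For the interferon-stimulated genes the list median was -0.35 in males and -0.73 in females, and -0.14 in females without Ctrlf replicate 1, with Rsad2 at -0.26, Ifit2 at -0.16 and Ifit3 at -0.44 in males. Of mast cell markers only Kit, which tubule cells also express, passed the filter (0.11 in males). Erythroid genes had a median of -0.29 in males and adipocyte genes one of 0.20, and in females the adipocyte median was -1.27 with 1 Ctrlf kidney at 363 CPM in their sum. Plac8, the monocyte and neutrophil marker of highest level, had a value of -0.43 in males.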
